A study of Mus musculus with 4 samples.

Results

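The 8 miRNAs described here are those of the imprinted Dlk1-Dio3 region that reached a background-subtracted intensity of 50 in at least 1 of 4 mouse hepatocarcinoma lines, out of 414 mouse miRNAs on the array and 47 probes for miRNAs of this region. They are mmu-miR-770-3p, mmu-miR-341, mmu-miR-370, mmu-miR-329, mmu-miR-494, mmu-miR-667, mmu-miR-382 and mmu-miR-668, in genomic order (mmu stands for mouse). The measured levels chose them, so the fact that they are detected is no result, and no test is attached to it. Total RNA of each line was labelled with the dye Hy3 and hybridised to a miRCURY array. Its probes contain locked nucleic acid, a modified nucleotide that binds short RNAs tightly. There was 1 array per line, with 4 spots per probe.

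The lines are Hepa1-6, an adherent line with no lymphatic metastasis ability, H22, a suspension line with none, and Hca-P and Hca-F, suspension lines of H22 origin with a lower (Hca-P) and a higher (Hca-F) ability. All were untreated. By the growth protocol, cells of Hca-P and of Hca-F were grown in the abdominal cavity of 615 mice for about 7 days, recovered from ascites and then cultured in RPMI-1640, while Hepa1-6 was cultured in DMEM. The protocol does not name H22 in either culture. Each line is 1 sample, so a difference between lines has no replicate check, errors given as ± are SDs over the 4 spots of an array, and fewer cells carrying a miRNA cannot be told from less of it per cell.

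The Dlk1-Dio3 region is imprinted: the maternal copy produces the non-coding RNAs Meg3, Rian and Mirg together with a long series of miRNAs, while the paternal copy expresses the protein-coding genes Dlk1, Rtl1 and Dio3. Its miRNAs are known from embryo, placenta and brain and are low in most adult tissues. A miRNA guides the silencing complex to messenger RNAs chiefly through its seed, bases 2 to 8 from the 5′ end.

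The mature sequences are shown because they set the 8 miRNAs apart from each other. All 8 were matched to RefSeq (GRCm38.p6, chromosome 12, plus strand), and the seed is in capitals. The probe list gives an arm for miR-770-3p alone. For the other 7 the arm is the one that the name without a suffix stood for in earlier naming, since the probe sequences are not given in the sources used here.
miR-770-3p: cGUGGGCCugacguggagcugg
miR-341 (3p arm): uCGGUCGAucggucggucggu
miR-370 (3p arm): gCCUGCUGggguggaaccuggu
miR-329 (3p arm): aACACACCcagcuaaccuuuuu
miR-494 (3p arm): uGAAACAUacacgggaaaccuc
miR-667 (3p arm): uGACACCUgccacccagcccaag
miR-382 (5p arm): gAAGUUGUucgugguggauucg
miR-668 (3p arm): uGUCACUCggcucggcccacuacc
The 8 sequences carry 8 different seeds, so they form no seed family. Among the other mature miRNAs searched in RefSeq, a member's seed was found in miR-362-3p alone, which shares that of miR-329. The search did not cover every chromosome, so other miRNAs with these seeds may have been missed. GC content ran between 40.9% in miR-329 and 72.7% in miR-770-3p.

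The hairpins span 171 kb. That of miR-770 (chr12:109563692-109563785) lies within Meg3, and those of miR-341 (chr12:109611500-109611595) and miR-370 (chr12:109618258-109618336) lie within Rian. The other 5 lie between Rian and the annotated start of Mirg, in the order miR-329 (chr12:109713481-109713577), miR-494 (chr12:109715318-109715402), miR-667 (chr12:109720006-109720097), miR-382 (chr12:109733771-109733846) and miR-668 (chr12:109734732-109734797). The remaining 39 probes of the region stayed under 50 in all 4 lines. Their highest intensities had a median of 8.75, and 23 of them stayed under 10. The 3 that reached 30 were miR-679 (39.2 in Hca-F), miR-433* (37.0 in Hca-F) and miR-540-3p (30.8 in H22), which lie just outside the minimum. Of the members, miR-382 (66.2 in Hca-F) lies nearest above it, followed by miR-370 (118 in Hca-P). The list of the region's miRNAs was drawn up with earlier results of these data known.

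Probes above and under the minimum lay side by side at several places along the region. Some members were also direct neighbours among the matched hairpins. The hairpins of miR-329 and miR-494 start 1.837 kb apart, and those of miR-341 and miR-370 start 6.758 kb apart. No line had both miR-341 and miR-370 at the minimum. The hairpin of miR-679 starts 0.259 kb after that of miR-494, which exceeded the minimum in every line while miR-679 did in none. The miR-134 hairpin lies between those of miR-382 and miR-668, and its probe reached 12.2 at most. The hairpin of miR-485 starts 0.17 kb after that of miR-668, and its 2 probes reached 12.5 and 7.25. miR-758, whose hairpin starts 0.671 kb before that of miR-329, reached 6.50. None of the 7 probes for miRNAs transcribed antisense to Rtl1 reached 50, among them miR-127 (6.25 at most) and miR-136 (19.2). In all, 8 of 47 probes of the region (17.0%) reached 50 in some line, against 95 of 367 mouse miRNAs outside it (25.9%). Member hairpins had a median GC content of 55.9% (35.3% to 70.2%), and the 29 other hairpins of the region that were matched to RefSeq had 45.1% (29.1% to 61.5%). This is a description, since the members were chosen by level, and the part that base composition plays in detection was not tested.

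**Figure D1:**
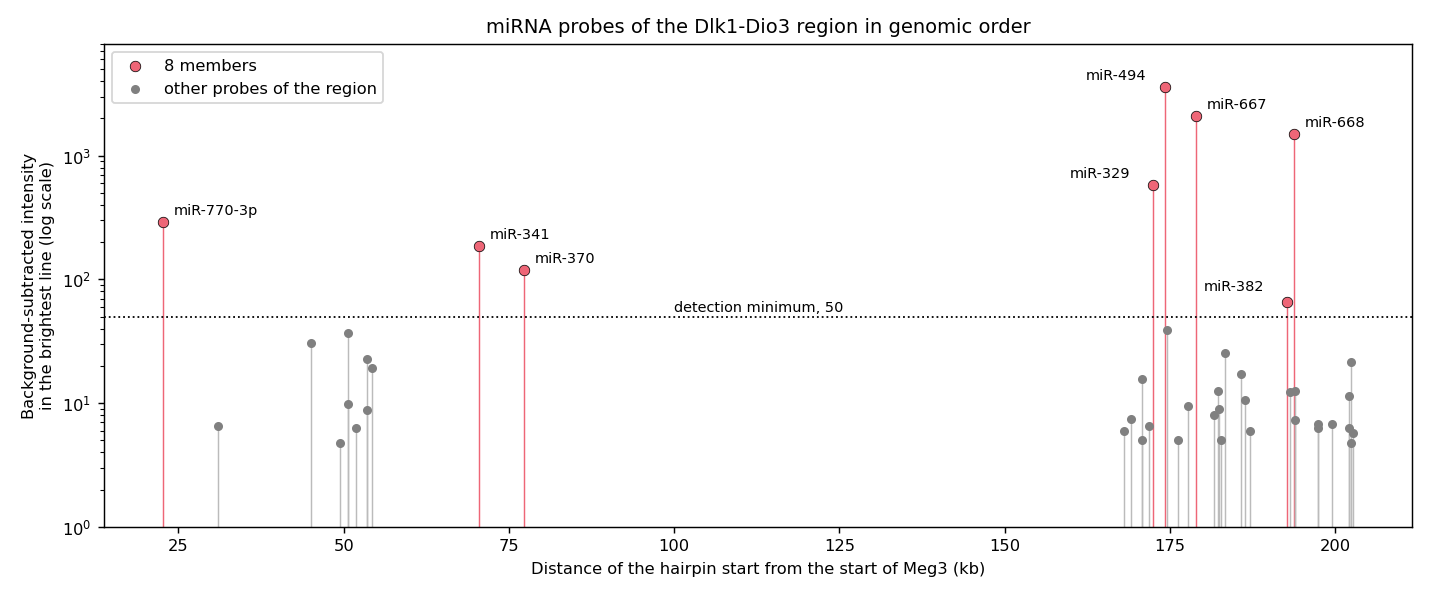
Background-subtracted intensity in the brightest of the 4 lines (log scale) for the 44 region probes matched to a RefSeq hairpin, against the distance of the hairpin start from the start of Meg3 in kb. Red points are the 8 members, above the dotted minimum of 50; grey points are other probes of the region, all under it; intensities of different probes are not compared, only their side of the minimum.

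Levels are given as intensity relative to the array's own median over 65 reference probes, those bright on all 4 arrays. A value under the minimum of 50 was set to it, which is a level of 0.124 in Hepa1-6, 0.136 in H22, 0.126 in Hca-P and 0.154 in Hca-F. A fold against it is a bound written as "at least". Of the 8 members, 6 reached the minimum in Hepa1-6, 5 in H22, 6 in Hca-P and 7 in Hca-F. Of the 414 mouse miRNAs 17.1% reached it in Hepa1-6, 21% in H22, 18.1% in Hca-P and 17.9% in Hca-F. The arrays fell into pairs. At the 160 Hy3 control spots, the foreground intensities of H22 and Hepa1-6 differed by at most 25 units (median 3) at median brightnesses of 12533.5 in H22 and 12530.5 in Hepa1-6, and those of Hca-F and Hca-P by at most 11 units (median 3), while the other 4 pairs of arrays had median differences of 1026.5 to 1033 units. How far a spot lay from the mean of its probe correlated at 0.660 within the first pair and 0.665 within the second, and at 0.158 to 0.243 between arrays of different pairs, as a description over the spots of 295 to 344 probes. The combined spot SDs used below join the spot SDs of 2 arrays as if independent. Within either pair of arrays this does not hold, so a step shared by all matched spots can still lie within them. These pairs of arrays coincide with absence and presence of lymphatic metastasis, so the array pair and metastasis cannot be told apart. The hepatocyte miRNA miR-122 was under the minimum in every line (33 in Hepa1-6, 22.2 in H22, 19.2 in Hca-P and 12.2 in Hca-F), as were miR-192 and miR-194. No erythroid, endothelial, mesenchymal or neuronal miRNA on the list of markers reached 50, and of the muscle miRNAs miR-206 did in all 4 lines (579 in Hepa1-6, 331 in H22, 196 in Hca-P, 316 in Hca-F).

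The miRNA nearest to the start of the region, mmu-miR-770-3p, was highest in H22 and even across the rest. Its level was 0.433 ± 0.0806 in Hepa1-6, 0.796 ± 0.0592 in H22, 0.380 ± 0.0559 in Hca-P and 0.478 ± 0.109 in Hca-F. The H22 value stood apart from that of the next line, Hca-F, by 2.55 combined spot SDs, and the other neighbours in the order differed by less than 1 combined SD. H22 was its highest line under all 9 alternatives of processing, but its lead over Hepa1-6, a log2 fold of 0.88, was 0.22 under quantile normalization and 0.02 under scaling to the 75th percentile of mouse probes.

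mmu-miR-341 was measured in Hepa1-6 alone. Its 4 spots there read 190, 214, 171 and 171 intensity units (a level of 0.462 ± 0.0505), against 12 to 18 in H22, 20 to 45 in Hca-P and 2 to 43 in Hca-F. All 12 spots of the suspension lines lay under the minimum. miR-341 became a member through Hepa1-6 alone, so a gap to the other lines is in part built into the choice. The bound was at least 3.39-fold lower in H22, at least 3.66-fold lower in Hca-P and at least 2.998-fold lower in Hca-F than in Hepa1-6. With a detection minimum of 100 those bounds shrink to log2 folds of -0.76, -0.87 and -0.58, under 2-fold.

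mmu-miR-370, known in human liver cells for acting on the fatty acid oxidation enzyme CPT1A, reached the minimum in Hca-P and Hca-F alone. Its spots read 15, 4, 61 and 38 in Hepa1-6, 10, 7, 42 and 37 in H22, 14, 149, 151 and 159 in Hca-P, and 15, 131, 89 and 108 in Hca-F. The first spot was near the background in all 4 lines, and the other 3 averaged 34.3 in Hepa1-6, 28.7 in H22, 153 in Hca-P and 109 in Hca-F. Counting the first spot, the readings of the lines with and without metastasis overlapped. The other 3 were singled out after their values were seen, and miR-370 became a member through Hca-P and Hca-F alone. Their averages are therefore descriptions. With all 4 spots the level was 0.298 ± 0.176 in Hca-P and 0.264 ± 0.155 in Hca-F, which did not differ beyond the spot error. Of the 4 leukocyte miRNAs on the list of markers, miR-142-5p alone reached 50 (59.2 in Hca-P), and the sum of all 4 was 116 (Hca-P) and 60.5 (Hca-F), against 29 (H22) and 8 (Hepa1-6). The sum of the 2 neuronal markers, both under 50, had the same order: 42.5 (Hca-P), 34 (Hca-F), 20 (H22) and 9.75 (Hepa1-6). So did the 1 endothelial marker. The mesenchymal sum was also highest in Hca-P, while the hepatocyte and muscle sums were highest in Hepa1-6 and the erythroid sum in H22. The part of any of these markers in the miR-370 difference was not tested.

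mmu-miR-329, known for its role in the dendrites of rat neurons, was highest in Hepa1-6 and lowest in Hca-P. Its level was 1.43 ± 0.376 in Hepa1-6, 1.12 ± 0.323 in H22, 0.385 ± 0.118 in Hca-P and 0.821 ± 0.211 in Hca-F. Neighbours in this order differed by less than 2 combined spot SDs at each step, although the ends were 3.73-fold apart. Matched by position, all 4 spots followed the order at each step. For Hca-F against Hca-P their log2 fold was 1.12 ± 0.13. The highest and the lowest line stayed the same under all 9 alternatives.

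mmu-miR-494, whose hairpin is the nearest member to that of miR-329, was ordered differently. It was at 3.99 ± 0.222 in Hepa1-6, 9.80 ± 2.37 in H22, 5.61 ± 1.32 in Hca-P and 8.53 ± 1.90 in Hca-F. Its lowest line was Hepa1-6 under all 9 alternatives, and its highest was H22 under 7 of them. Hca-F was highest when arrays were scaled to the 75th percentile of mouse probes, and the 3 suspension lines tied under quantile normalization. Neighbours in the order again lay within 2 combined spot SDs.

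mmu-miR-667 was at 4.57 ± 0.554 in Hepa1-6, 5.69 ± 0.329 in H22, 1.83 ± 0.424 in Hca-P and 3.94 ± 0.615 in Hca-F. Hca-P was lowest under all 9 alternatives and lay 2.82 combined spot SDs below Hca-F, the next line. H22 was highest, but Hepa1-6 was under quantile normalization and under scaling to the 75th percentile of mouse probes.

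mmu-miR-382, known in kidney epithelium for acting on superoxide dismutase 2, reached the minimum in Hca-F alone. Its spots there read 66, 34, 66 and 99, against 17 to 40 in Hepa1-6, 10 to 26 in H22 and 8 to 48 in Hca-P. The Hca-F spots overlapped with those of Hepa1-6 and Hca-P but not with those of H22. miR-382 became a member through Hca-F alone, so a higher value there is in part built into the choice. Its level of 0.204 ± 0.0818 in Hca-F was at least 1.65-fold that of Hepa1-6 and at least 1.62-fold that of Hca-P, and above that of H22 by a log2 fold of at least 0.58. These bounds do not show whether the differences reach 2-fold. With a detection minimum of 30, which Hepa1-6 reached, the log2 fold against Hepa1-6 was 1.33. The bounds were then log2 folds of at least 1.43 against Hca-P and 1.32 against H22.

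mmu-miR-668, the last of the 8 along the region, was at 1.01 ± 0.194 in Hepa1-6, 4.07 ± 1.07 in H22, 2.13 ± 0.579 in Hca-P and 2.29 ± 0.353 in Hca-F. Hepa1-6 was lowest and H22 highest under all 9 alternatives, a range of 4.04-fold. Hca-P and Hca-F differed by 0.230 combined spot SDs.

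**Figure D2:**
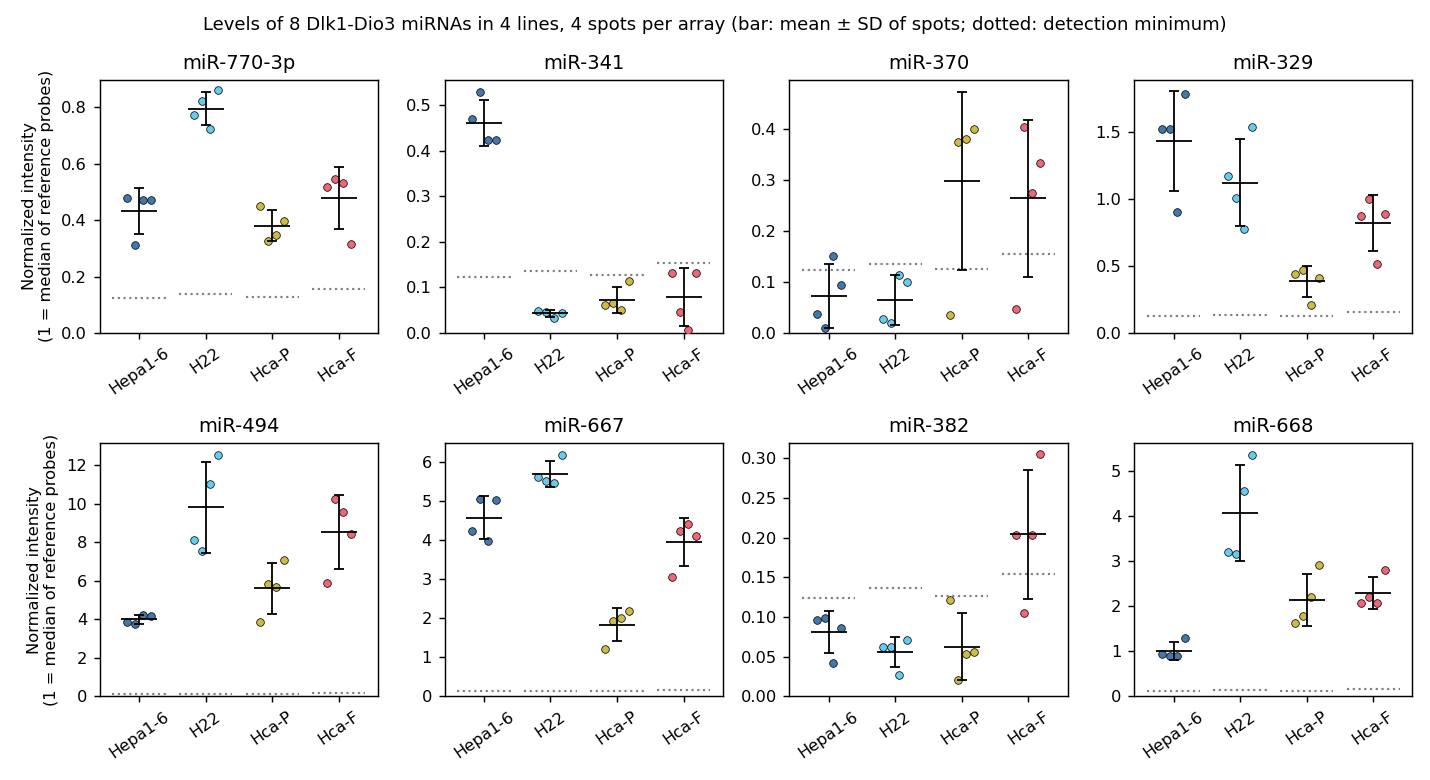
Normalized intensity (1 = median of the reference probes) of each of the 8 miRNAs in Hepa1-6, H22, Hca-P and Hca-F, with 1 point per spot, the mean and SD over 4 spots as bars and the detection minimum as a dotted line. miR-341 is above the minimum in Hepa1-6 alone, miR-329 and miR-667 are lowest in Hca-P, and miR-668 is lowest in Hepa1-6 at 1.01 and highest in H22 at 4.07.

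Hca-F was set against Hca-P to compare higher with lower metastasis ability in lines of 1 origin. Differences of 2-fold or more are counted, first among the 8 members and then among all miRNAs that reached the minimum in at least 1 of the 2 lines. miR-667 was 2.15-fold higher in Hca-F (3.94 ± 0.615 against 1.83 ± 0.424 in Hca-P) and miR-329 2.13-fold higher (0.821 ± 0.211 against 0.385 ± 0.118). Taken spot by spot at the same array position, their log2 folds were 1.13 ± 0.17 and 1.12 ± 0.13 (mean and SD over 4 spots), and all 4 spots were higher in Hca-F for each. Thus 2 of 8 were shown to be higher by 2-fold or more and 0 lower, 4 were measured within 2-fold, miR-382 had a bound under 2-fold and miR-341 was under the minimum in both. Across all 85 miRNAs tested, 36.5% were apart by 2-fold or more (23.5% higher in Hca-F and 12.9% lower). The members' median log2 fold was 0.60, against 0.46 over all. Neither miR-329 nor miR-667 was 2-fold apart without scaling or where all capture probes set the factor, and the split was then 0 and 0.

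Hca-P was set against H22, its line of origin. miR-667 was 3.11-fold lower in Hca-P (1.83 ± 0.424 against 5.69 ± 0.329 in H22) and miR-329 2.92-fold lower (0.385 ± 0.118 against 1.12 ± 0.323). miR-770-3p was 2.09-fold lower, and 4 of 4 spots were lower in Hca-P for each of these 3. miR-370 was at least 2.19-fold higher, a bound that shrinks to a log2 fold of 0.13 with a detection minimum of 100. miR-668 (1.91-fold lower) and miR-494 (1.75-fold lower) stayed within 2-fold, and miR-341 and miR-382 were under the minimum in both lines. The count of 1 higher and 3 lower stands beside 15.3% higher and 34.7% lower among the 98 miRNAs tested, 50% in all. The median was -0.999 over the members and -0.62 over all, so relative to the median of all miRNAs miR-667 was lower by a log2 difference of -1.01 and miR-329 of -0.92. The folds of miR-667 and miR-329 kept their direction and stayed at 2-fold or more under all 9 alternatives, while that of miR-770-3p did so under 4 and was -0.42 on the log2 scale at its smallest.

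Between Hca-F and H22, 0 of 8 members were shown to be 2-fold apart: 5 were measured within 2-fold, and miR-370 and miR-382 had bounds under it. miR-370 was at least 1.94-fold higher in Hca-F, and miR-668 was 1.78-fold lower (2.29 ± 0.353 against 4.07 ± 1.07 in H22). miR-770-3p was 1.67-fold lower, miR-667 1.44-fold lower, miR-329 1.37-fold lower and miR-494 1.15-fold lower. miR-382 was higher by a log2 fold of at least 0.58, and miR-341 was under the minimum in both. Of all 95 miRNAs tested, 32.6% were 2-fold or more apart, with a median log2 fold of -0.15 over all and -0.45 over the members. Both quantile normalization and the 75th percentile of mouse probes turned the split of 0 and 0 into 2 higher and 0 lower, as did a detection minimum of 30 (miR-370 and miR-382 at log2 folds of at least 1.69 and 1.32), and no scaling or all capture probes gave 0 higher and 1 lower. The comparisons of Hca-P and Hca-F with H22 share the H22 array, and those below share the Hepa1-6 array.

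H22 was set against Hepa1-6, which differ in growth form and both lack lymphatic metastasis. miR-668 was 4.04-fold higher in H22 (4.07 ± 1.07 against 1.01 ± 0.194 in Hepa1-6), and its spot-by-spot log2 folds lay between 1.78 and 2.35. miR-494 was 2.46-fold higher (9.80 ± 2.37 against 3.99 ± 0.222), miR-770-3p was 1.84-fold higher, and miR-341 was at least 3.39-fold lower. miR-667 (1.24-fold higher) and miR-329 (1.28-fold lower) were within 2-fold, and miR-370 and miR-382 were under the minimum in both. The 2 higher and 1 lower stand beside 33.7% higher and 3.26% lower of 92 miRNAs tested (37% in all). They became 1 and 2 under the 75th percentile of mouse probes and 1 and 1 after quantile normalization, and miR-494 had a log2 fold of 0.44 under each. With these scalings the median log2 fold of all miRNAs was -0.64 and -0.48, against 0.31 in the values above. miR-668 kept its direction and at least 2-fold under all 9 alternatives (log2 1.16 to 2.12).

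Hca-F against Hepa1-6 gave miR-668 at 2.27-fold higher in Hca-F (2.29 ± 0.353 against 1.01 ± 0.194 in Hepa1-6) and miR-494 at 2.14-fold higher (8.53 ± 1.90 against 3.99 ± 0.222). miR-370 was at least 2.13-fold higher and miR-341 at least 2.998-fold lower. The spots of miR-668 gave a log2 fold of 1.19 ± 0.08. Of the other 4, miR-770-3p, miR-667 and miR-329 (1.75-fold lower) were measured within 2-fold, and miR-382 had a bound of at least 1.65-fold. Of 81 miRNAs tested 37% were apart, 27.2% higher and 9.88% lower. miR-668, miR-494, miR-370 and miR-341 each kept its direction under every alternative that gave them a fold, but the split of 3 higher and 1 lower turned to 0 and 2 under each of quantile normalization, the 75th percentile of mouse probes, no scaling and all capture probes.

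In Hca-P against Hepa1-6, 5 of 8 members were 2-fold or more apart. miR-494 (1.41-fold higher) and miR-770-3p (1.14-fold lower) were measured within 2-fold, and miR-382 was under the minimum in both lines. miR-329 was 3.73-fold lower in Hca-P (0.385 ± 0.118 against 1.43 ± 0.376 in Hepa1-6), miR-667 2.50-fold lower (1.83 ± 0.424 against 4.57 ± 0.554) and miR-341 at least 3.66-fold lower. miR-370 was at least 2.41-fold higher and miR-668 2.12-fold higher (2.13 ± 0.579 against 1.01 ± 0.194), the gap of miR-668 being within 2 combined spot SDs although all 4 spots were higher. The 2 higher and 3 lower stand beside 31.5% higher and 24.7% lower of 89 miRNAs tested (56.2% in all), and became 0 and 3 under the 75th percentile of mouse probes and 1 and 3 after quantile normalization. miR-329 and miR-667 stayed 2-fold or more lower under all 9 alternatives.

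**Figure D3:**
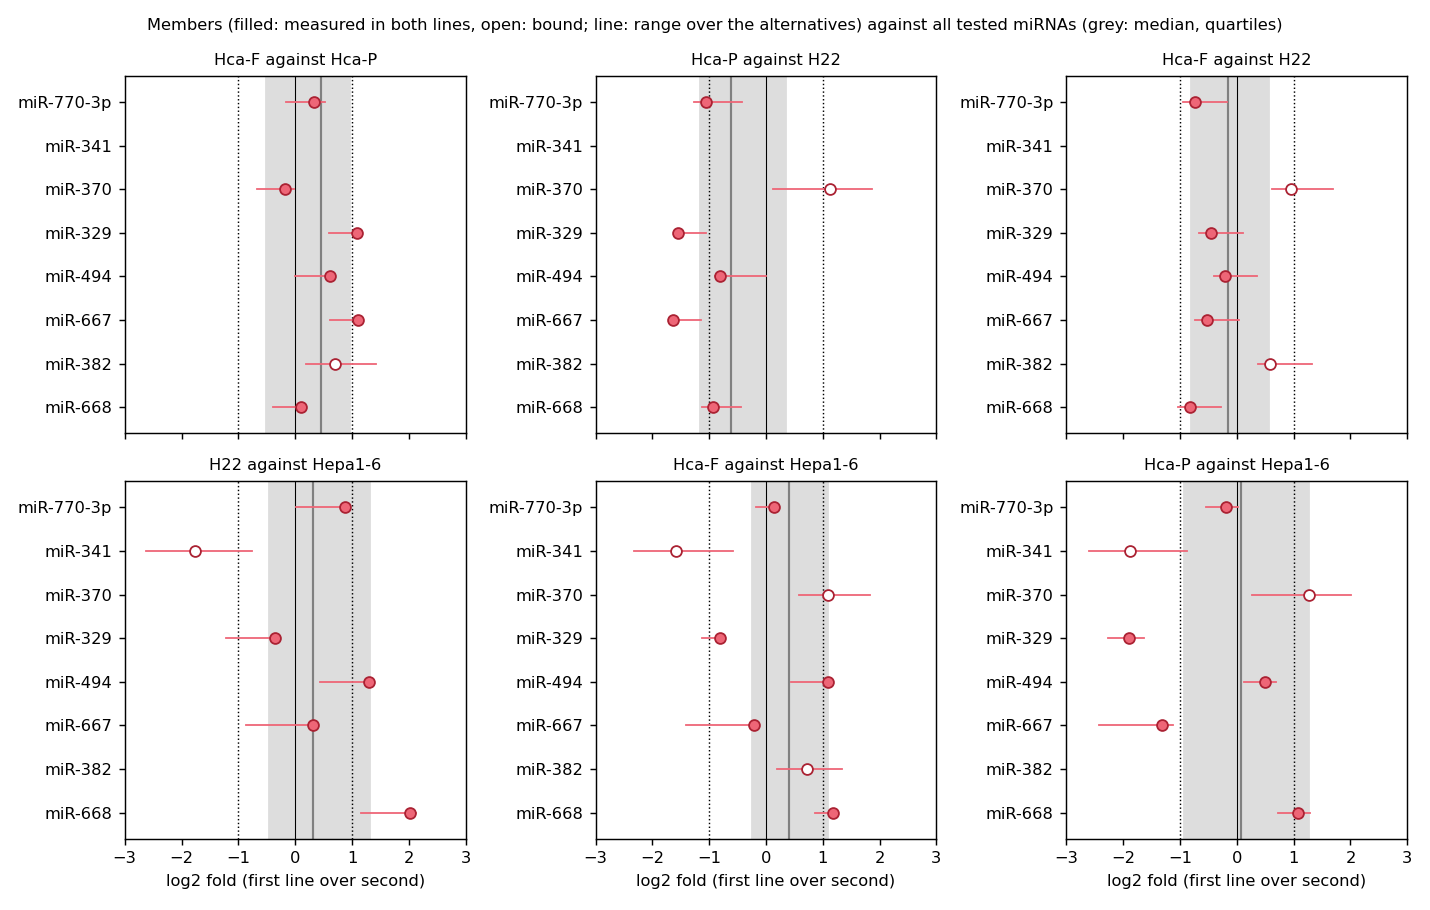
Log2 fold of each member for the 6 pairs of lines (first line over second), filled where both lines were measured and open where the fold is a bound, with a horizontal bar for the range over the alternatives, the grey band and line for the quartiles and median of all tested miRNAs, and dotted lines at 2-fold. Members lie on both sides of 0 in the comparison of Hca-P with Hepa1-6, miR-329 at -1.90 and miR-668 at 1.08.

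Against Hepa1-6 the members did not move as a unit, and this does not depend on a factor per array, which shifts all of them equally. Between Hca-P and Hepa1-6, the log2 folds of miR-668 and miR-329, both measured in both lines, lay 2.98 apart, a 7.88-fold unequal change, with an SD of 0.31 from the spots. Between H22 and Hepa1-6 the same miRNAs lay 2.37 ± 0.32 apart, and between Hca-F and Hepa1-6 1.99 ± 0.18. Among members measured in both lines, the widest gaps between the lines of 1 origin were 1.28 ± 0.42 for Hca-F against Hca-P (miR-667 over miR-370), 0.83 ± 0.47 for Hca-P against H22 (miR-494 over miR-667) and 0.63 ± 0.53 for Hca-F against H22 (miR-494 over miR-668). Both gaps against H22 were under 2 spot SDs, and the 5 members measured there were all lower in Hca-P and all lower in Hca-F. The median log2 fold over all miRNAs tested was negative as well, -0.62 for Hca-P against H22 and -0.15 for Hca-F against H22. The shared direction is therefore not particular to the members. Under scaling to the 75th percentile of mouse probes, miR-329, miR-494 and miR-667 were instead higher in Hca-F than in H22. With bounds included, miR-370 lay at least 2.77 above miR-667 for Hca-P against H22, and at least 1.79 above miR-668 for Hca-F against H22. Against Hepa1-6, miR-668 lay at least 3.78 above miR-341 in H22 and at least 2.77 above it in Hca-F, and miR-370 at least 3.17 above miR-329 in Hca-P. The pairs of miRNAs in these gaps were picked as the extremes, so the gaps are descriptions, and the spots are not replicates of a line.

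The series is named for lymphatic metastasis, and Hca-P and Hca-F were therefore set against H22 and Hepa1-6 with limma across 103 miRNAs, each line as 1 of 2 samples of its class. At an adjusted p threshold of 0.05 none of the 8 members passed, with limma adjusted p between 0.651 and 0.956, and 0 had an unadjusted p under 0.05. Of the 103 miRNAs 2 passed (1.94%), and 6 had an unadjusted limma p under 0.05, where 5.15 would be expected without any difference. The largest differences were -1.18 ± 0.83 (SE) for miR-329, with a limma adjusted p of 0.651, and 1.11 ± 0.62 for miR-370, which was set to the minimum in both lines without metastasis, with the same adjusted p. The value for miR-341 was -0.85 ± 0.60, for miR-667 -0.92 ± 0.75 and for miR-770-3p -0.46 ± 0.96, while miR-382 (0.31 ± 0.33), miR-494 (0.15 ± 0.78) and miR-668 (0.12 ± 0.74) were nearest to 0. Thus 4 members had positive and 4 negative differences, with a median of -0.17, against -0.13 over all 103. miR-341 was set to the minimum in every line but Hepa1-6, and miR-382 in every line but Hca-F. Like miR-370, each became a member through lines of 1 class only. The signs of their differences are therefore in part built into the choice, and the split and median are descriptions. The lines are not independent, H22 being the origin of both lines with metastasis, and the p-values speak only of how these 4 arrays differ.

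The mean profile of the members over the 4 lines, each miRNA centred on its own mean log2 level, was highest in H22 (0.27), then Hca-F (0.15), Hepa1-6 (-0.06) and Hca-P (-0.36). The 3 most like it of 95 miRNAs outside the region, by root mean square difference over the 4 lines, were miR-195 (0.13), miR-98 (0.14) and miR-26a (0.15). miR-195 reached the minimum in 2 lines and the other two in 1, so most of their values are the minimum itself. Single members lay between 0.24 (miR-770-3p) and 0.81 (miR-341) from their own mean profile. The 3 miRNAs outside the region were picked as the nearest of 95, so these values are not compared with theirs.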

How the data were processed

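The authors scanned the arrays on a GenePix 4000B and extracted them in GenePix Pro, per the labels. They deposited linear intensity values in 3 forms: foreground, background-subtracted, and normalized, the last being replicate spots averaged and divided by the median of miRNAs at 50 or more in all samples, per the labels. The mean of 4 deposited background-subtracted spot intensities equalled the deposited probe value exactly, and dividing it by the median of 65 mouse and miRPlus probes (the maker's own sequences) gave the normalized intensity to within 7.11e-15. The local background lay between 31 and 56. From these values the levels, folds and spot SDs were computed with Python 3.11.15 and pandas 2.3.3, and limma 3.58.1 (R 4.3.3, lmFit and eBayes with trend, Benjamini-Hochberg over 103 miRNAs, threshold 0.05). The limma step was tested on simulated data. RefSeq mature and hairpin sequences were matched by name.

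Of 2 probes with 1 name the brighter was kept. A miRNA entered a comparison of 2 lines if at least 1 was at 50 or more. A bound under 1-fold was given no fold: this left 83 of 85 miRNAs with one for Hca-F against Hca-P, 97 of 98 for Hca-P against H22 and 92 of 95 for Hca-F against H22. All 8 members are named; others of the region are named if they reached 30 in some line, and the 3 miRNAs outside the region nearest to the mean profile are named. The neighbours of members and miR-127 were chosen for naming after their values were seen. Other settings tried were the 75th percentile of mouse probes as the factor, quantile normalization, no scaling, a factor from all capture probes, detection minimums of 30 and 100, normexp with an offset of 50, the median of spots, the authors' normalized values, thresholds of 1.5-fold and 3-fold, and leaving out single spots. Spot-by-spot folds were added after seeing the data. The members, lists and tests were chosen with earlier results of these data known. The number of arrays, 1 per line, limits the precision.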

Additional observations from a re-analysis of the deposited data

How the results depend on the processing

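With 1 array per line, the counts of members shown to be 2-fold or more apart are small and moved with the scaling. For Hca-F against H22 (0) they were 2 after quantile normalization, with the 75th percentile of mouse probes, with a minimum of 30 and with the median of spots, and 1 with no scaling or all capture probes. For Hca-F against Hepa1-6 (4) they were 2 after quantile normalization, with the 75th percentile, no scaling, all capture probes or a minimum of 100. For Hca-F against Hca-P (2) they were 0 with no scaling or all capture probes and 1 with normexp. For Hca-P against Hepa1-6 (5) they were 3 with the 75th percentile, a minimum of 100 or normexp, and for Hca-P against H22 (4) they were 2 with normexp. A threshold of 1.5-fold gave 4 for Hca-F against Hca-P and 3 for Hca-F against H22. A threshold of 3-fold gave 0 for Hca-F against Hca-P and for Hca-F against Hepa1-6, 1 for Hca-P against H22 and 2 for Hca-P against Hepa1-6. A stricter threshold or minimum leaves fewer differences to count by construction; for the other settings the cause was not tested. No called fold of a member changed direction under these settings. In limma, 0 members passed under each of the 9 alternatives (a minimum of 100 left 7 to test) and without any 1 line (range 0 to 0), with a lowest member adjusted p between 0.533 and 0.994. Leaving out a line sets 1 line against 2, with the lone line assumed to vary like the others, so those counts say nothing about stability. Over all miRNAs, 0 to 3 passed in place of 2. No paired analysis was possible because the labels give no replicate numbers and 1 sample per line.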
